A study of Mus musculus with 4 samples.

Results

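The genes described are 10 surface markers by which mouse blood stem cells and early progenitors are sorted, namely Ly6a, Cd34, Slamf1, Cd48, Procr, Cd27, Esam, Cd9, Eng and Ly6d. They were taken by gene symbol from tables of RNA levels, whose rows carry 12750 different names over 4 libraries. Of the 10 genes, 9 had a row of their own in at least 1 library and 6 had one in all 4. Ly6a had none. Of the 12417 genes kept once names in joined rows were left out, 8246 had a row in all 4 libraries, so a missing row was common. The RNA came from bone marrow of C57BL/6 mice aged 8 to 12 weeks, either wild type (WT) or GRK6-/- littermates, which lack exons 3 to 9 of Grk6, the gene of a kinase that desensitizes G protein-coupled receptors, in every tissue. HSC, the hematopoietic stem cell fraction, were sorted as Lin-c-kit+sca-1+ cells, a gate that also takes in multipotent progenitors. CLP, the common lymphoid progenitors, had the same gate plus Il-7Ra+. HSC and CLP of each genotype gave 1 library apiece, made from 13 to 15 single cells of 3 to 4 mice whose cDNA was amplified cell by cell and then pooled. No group had a replicate, so a difference between any pair of libraries is given as a value without a test, and differences between such small pools cannot be told apart from those of genotype or population.

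The most primitive stem cells carry the protein C receptor (Procr, also EPCR) and the SLAM receptor CD150 (Slamf1) and lack CD48, while multipotent and lineage-restricted progenitors gain CD48. CD34 is absent or low on dormant adult mouse stem cells and appears on cycling and short-lived ones, CD27 rises as cells take the lymphoid path, and Ly6d marks the CLP that are committed to the B lineage. Endoglin (Eng), ESAM and the tetraspanin CD9 are enriched on stem cells and are shared with endothelial cells or megakaryocytes. Sca-1, the product of Ly6a, was itself a sorting antigen here.

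Levels are in FPKM, the fragments per kilobase of transcript scaled to the mapped fragments of the library, as the authors computed them. Each difference is a log2 ratio of FPKM + 1, which understates the change of low genes, and 2-fold means a log2 ratio of at least 1 in either direction. No row stood at 0 in any table, and a gene without a row was set to 0 in counts but is given no ratio here. The steps between the lowest values put the depth behind FPKM at about 2890000 (WT) and 3780000 (GRK6-/-) fragments for HSC, and at 4370000 (WT) and 2790000 (GRK6-/-) for CLP. These inferred depths lie below the number of sequenced reads that the paper states for each lineage. After amplification, fragments are not separate RNA molecules. Of 18 genes used by every cell, 17 had a row in all 4 libraries. Kit had 53.3 and 34.4 FPKM in HSC (WT, then GRK6-/-) and 26.2 and 81.8 in CLP, and every list of 4 values below keeps this order. Il7r had no row in WT HSC, 1.08 FPKM in GRK6-/- HSC, and 120 and 75.1 in CLP. Of 12 CLP marker genes, 6 were past 2-fold higher in CLP in both genotypes, as 5.05% of all genes were. Of 12 HSC marker genes only Gata2 was past 2-fold higher in HSC in both, as 5.77% of all genes were, and the summed level of the 12 was 157, 122, 154 and 188 FPKM. Grk6 was higher, not lower, in the libraries labelled GRK6-/- (42.7, 89.4, 26.9 and 57.6 FPKM). Its row covers the whole gene and does not show the deleted exons, so it does not check the genotype labels, and every genotype below is that of the label.

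Ly6a, whose product Sca-1 is a GPI-anchored protein, was inside a shared row. In all 4 libraries 1 row spanned chr15:74810242-75262259 of mm9, over 452 kb and 9 annotated protein-coding genes. This row carried the names of Ly6a, Ly6i, Ly6c1, Ly6c2 and 9030619P08Rik in WT HSC and that of 9030619P08Rik alone in the other 3 libraries. Ly6a itself lies at chr15:74825308-74828064 on the minus strand. The lack of a Ly6a row is therefore not a measured absence. The shared row had 1998, 1792, 1537 and 1100 FPKM, the highest level of any row that holds one of these genes. Both HSC libraries were above both CLP libraries, as for 17.6% of all genes, by a log2 ratio of 0.38 in WT and 0.70 in GRK6-/-. The log2 ratio of GRK6-/- to WT was -0.16 in HSC and -0.48 in CLP. None of these ratios was past 2-fold. No share of this value can be given to Ly6a. In GRK6-/- HSC a row named Ly6f (21.8 FPKM) lay within the same stretch. The neighbour Ly6e, outside the shared row, had a row of its own in each library, at 908, 639, 1175 and 1234 FPKM.

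**Figure D1:**
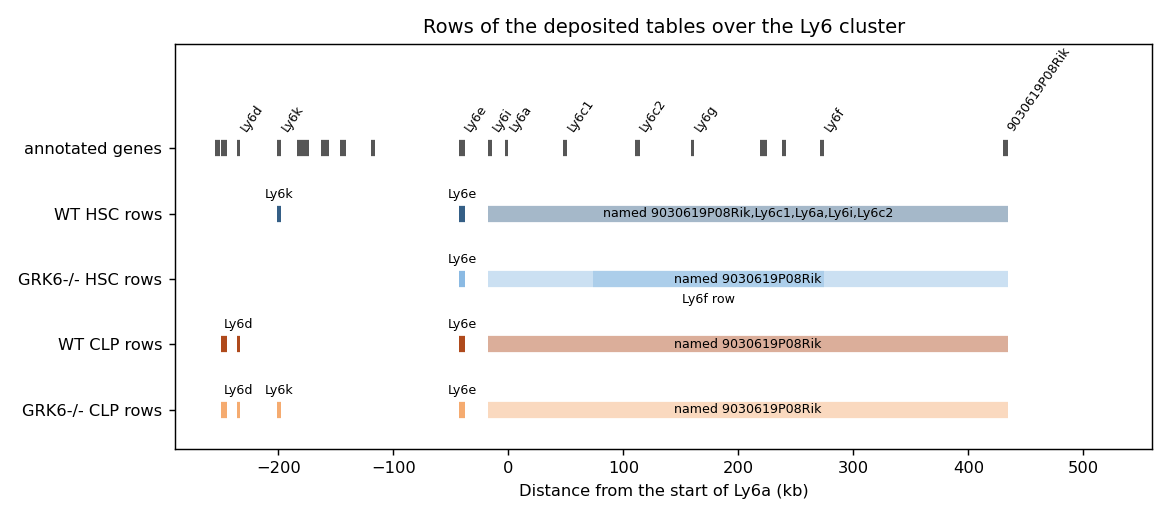
Rows of the deposited tables over the Ly6 gene cluster, by distance in kb from the start of Ly6a (x axis), with annotated genes on top and 1 line per library below. A single row of 452 kb covers Ly6a in all 4 libraries, and Ly6d has its own row in both CLP libraries and none in HSC.

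Of the other 8 genes under this row, 5 were compared with Ly6a. Over the coding sequence, Ly6a was 86.4% identical to Ly6i, 84.4% to Ly6f, 83.8% to Ly6c1 and 83.6% to Ly6c2 in the mm9 annotation, and the 150 coding bases of 9030619P08Rik were 81.3% identical to it. Of the 784 stretches of 36 bases in the Ly6a transcript, 52 also occurred in Ly6i, 32 in each of Ly6c1 and Ly6c2, and 0 in Ly6f and in 9030619P08Rik. The paper states reads longer than 36 bases, so these counts are not shares of reads. The second exon, 117 bases in each gene and on the minus strand of chromosome 15 (NCBIM37, the assembly of mm9), is shown to let the copies be compared, with capitals where a base differs from Ly6a.
Ly6a, chr15:74826882-74826998: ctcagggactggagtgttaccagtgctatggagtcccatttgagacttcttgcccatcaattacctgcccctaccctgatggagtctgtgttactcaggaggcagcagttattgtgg
Ly6i, chr15:74812316-74812432: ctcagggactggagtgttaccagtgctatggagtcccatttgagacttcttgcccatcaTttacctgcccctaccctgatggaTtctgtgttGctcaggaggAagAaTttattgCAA
Ly6c1, chr15:74877783-74877899: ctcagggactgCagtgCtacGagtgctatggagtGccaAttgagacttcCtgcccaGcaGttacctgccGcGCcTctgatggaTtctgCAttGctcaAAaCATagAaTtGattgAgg
Ly6c2, chr15:74940941-74941057: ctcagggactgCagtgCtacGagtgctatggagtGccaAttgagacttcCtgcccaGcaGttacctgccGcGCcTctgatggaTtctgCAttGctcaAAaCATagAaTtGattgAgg
Ly6i differed from Ly6a at 9 of these bases. Ly6c1 and Ly6c2 each differed from Ly6a at 25 bases, at the same positions and with the same letters.

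Ly6d, a GPI-anchored protein of the same family that marks B-lineage commitment of the CLP, was the 1 gene of these with rows in a single population. It had no row in WT HSC and none in GRK6-/- HSC, and 1438 FPKM in WT CLP and 1051 in GRK6-/- CLP, at percentiles of 99.5 and 99.4 among the rows of those libraries. No other row covered its locus (chr15:74592486-74593997, minus strand), which lies 231.3 kb from Ly6a, and 3 fragments would have given 1.50 FPKM in WT HSC and 1.15 in GRK6-/- HSC. The CLP values stand for about 4342 and 2027 fragments. In a limma fit of all 4 libraries with population and genotype as terms, which has 1 residual degree of freedom, Ly6d was the only gene of 11230 with an adjusted p under 0.05 for HSC against CLP (limma, adjusted p = 0.0297), or 0.00890% of the genes tested. Both HSC values in that fit were set to 0 for want of a row, and the gene passed the filter on low values through CLP alone, so the call adds nothing to the levels given. It was lost in limma without the genotype term (adjusted p = 0.171), with a pseudocount of 0.1 (adjusted p = 0.805) and without the filter on low values (adjusted p = 0.874), and it held with a trended prior, where 80 genes passed. An exact two-sided permutation test of 2 against 2 libraries cannot go below p = 0.333. In pools of cells, fewer cells of a type and less RNA per cell cannot be told apart. B cell markers, summed over 9 listed genes of which 7 had a row, were at 41.9, 35.5, 283 and 1140 FPKM. Of the 9, 5 were past 2-fold higher in CLP in both genotypes, as 5.05% of all genes were. The part of B cell markers in the level of Ly6d was not tested. Ly6d was lower in GRK6-/- CLP than in WT CLP (log2 ratio -0.45), while the summed B cell markers were higher. Of 16 listed genes of the Ly6/uPAR family, 7 had a row of their own, and Ly6d alone was past 2-fold in the same direction in both genotypes.

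**Figure D2:**
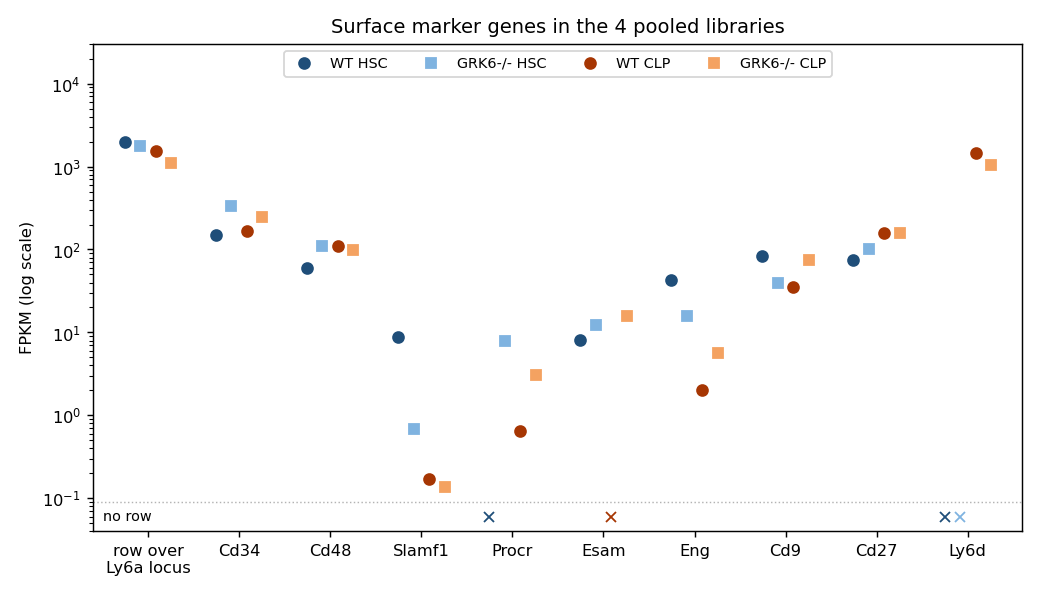
FPKM on a log axis of the 9 genes with a row and of the row over the Ly6a locus, in the 4 libraries (circles WT, squares GRK6-/-, blue HSC, orange CLP); each point is 1 library, and a cross marks no row. Ly6d has points in CLP only, Slamf1 and Eng lie higher in both HSC libraries, and Cd34, Cd48, Cd9 and Esam overlap between the populations.

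The SLAM pair Slamf1 and Cd48 lies 61.9 kb apart on the plus strand of chromosome 1 and was read very differently. Slamf1 (chr1:173697258-173731315), the gene of CD150, had 8.91 FPKM in WT HSC against 0.689 in GRK6-/- HSC, and 0.172 (WT) and 0.136 (GRK6-/-) in CLP. These are about 69.3, 7.02, 2.03 and 1.02 fragments, so that only WT HSC held more than a few. Both HSC libraries were above both CLP libraries, as for 17.6% of all genes, by a log2 ratio of 3.08 in WT and of 0.57 in GRK6-/-, the latter from a handful of fragments. With a pseudocount of 0.1 the second ratio was 1.74, past 2-fold. The log2 ratio of GRK6-/- HSC to WT HSC was -2.55, and no difference between the CLP libraries was detectable at this depth. In the limma fit the population difference of Slamf1 was 1.83 ± 1.02 (log2, SE; adjusted p = 0.920).

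Cd48 (chr1:173612140-173635389), a ligand of the SLAM family receptor CD244 and the marker that stem cells lack, had 60.2, 111.0, 110.2 and 98.7 FPKM. WT HSC was the low library and the other 3 lay within 1.12-fold of each other. The log2 ratio of GRK6-/- to WT was 0.87 in HSC and -0.16 in CLP, and no comparison of Cd48 passed 2-fold. On the FPKM scale, which is per transcript length, Cd48 exceeded Slamf1 by 6.76-fold in WT HSC. In GRK6-/- HSC the ratio was about 161, on some 7.02 fragments of Slamf1, and in CLP, at about 2.03 and 1.02 fragments, Slamf1 was too low for a ratio. A pool cannot show whether the same cells carried both RNAs. Among the 12 SLAM family and adaptor genes listed, 9 had a row. Slamf6, another receptor of the family, was past 2-fold higher in CLP in both genotypes (no row, 2.28, 106 and 29.1 FPKM), and the adaptor Sh2d1b1 was past 2-fold higher in HSC in both (3.93 and 3.36 FPKM, no row in CLP).

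Procr (chr2:155576853-155581207, plus strand), the receptor of protein C known as EPCR, had no row in WT HSC, 7.85 FPKM in GRK6-/- HSC, and 0.653 (WT) and 3.08 (GRK6-/-) FPKM in CLP. WT HSC, where 3 fragments would have given 0.646 FPKM, was the library without a row, and GRK6-/- HSC, with about 47.7 fragments, was the highest. The GRK6-/- library was the higher one in both populations, with a log2 ratio of 1.30 in CLP from about 4.59 and 13.8 fragments (0.52 with a pseudocount of 5). Between populations Procr was past 2-fold higher in HSC in GRK6-/- (1.12, or 0.67 with a pseudocount of 5) but had no row in WT HSC, so the populations overlapped. Of the 10 listed genes of the protein C system, 8 had a row, and Tfpi, the tissue factor pathway inhibitor, was the 1 gene past 2-fold higher in HSC in both genotypes (27.0, 28.2, 2.52 and 8.23 FPKM).

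Eng (chr2:32502115-32538189, plus strand), a co-receptor for TGF-beta and BMP ligands, had 43.4, 15.6, 2.004 and 5.66 FPKM. Both HSC libraries were above both CLP libraries, as for 17.6% of all genes, with log2 ratios of 3.89 in WT and 1.32 in GRK6-/-. Eng was past 2-fold higher in HSC in both genotypes (5.77% of all genes were). No other of these genes was, at the pseudocount of 1. With a pseudocount of 5 the GRK6-/- ratio was 0.95, no longer past 2-fold. The values stand for about 448, 211, 31.3 and 56.4 fragments. In limma the difference between HSC and CLP was 2.60 ± 1.03 (log2, SE), which did not pass the adjustment over 11230 genes (limma, unadjusted p = 0.0335, adjusted p = 0.874), and 5.41% of all genes had an unadjusted p under 0.05. By genotype Eng went opposite ways, lower in GRK6-/- HSC than in WT HSC (-1.42) and higher in GRK6-/- CLP than in WT CLP (1.15, or 0.61 with a pseudocount of 5, no longer past 2-fold). The Eng row ran past the annotated end and overlapped the row of Fpgs on the opposite strand by 835 to 2029 bases, so reads there cannot be assigned to 1 gene without strand. Fpgs, the folate polyglutamate synthase, had 15.9, 10.3, 6.28 and 25.8 FPKM. Of 18 listed genes of endoglin and TGF-beta signalling, 17 had a row and 2 were past 2-fold higher in HSC in both genotypes, Eng and the receptor Acvr1 (1.39 and 3.14 FPKM in HSC, no row in CLP).

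Cd9 (chr6:125410284-125444809, minus strand), a tetraspanin of stem cells and megakaryocytes, had 83.7 (WT) and 39.7 (GRK6-/-) FPKM in HSC, and 35.3 (WT) and 74.6 (GRK6-/-) in CLP. WT HSC and GRK6-/- CLP were high and the other libraries low, so the populations overlapped. Each ratio of GRK6-/- to WT was just past 2-fold, at -1.06 in HSC and 1.06 in CLP (-0.99 and 0.98, no longer past it, with a pseudocount of 5), and HSC was past 2-fold above CLP only in WT (1.22 against -0.89 in GRK6-/-). Megakaryocyte and platelet markers, summed over 10 listed genes, moved the same way, at 193, 16.6, 13.5 and 117 FPKM, as did most but not all of the single genes. Between the HSC libraries 5 of 7 were past 2-fold lower in GRK6-/- (18.0% of all genes were) and 2 were past 2-fold higher, namely Ppbp and Gp1ba, which had rows only in GRK6-/- HSC (2.20 and 1.55 FPKM). Between the CLP libraries 4 of 4 were past 2-fold higher in GRK6-/- (26.6% of all genes were). Itga2b had 47.0, 4.20, 2.52 and 46.0 FPKM, and Pf4 had 75.4, no row, 10.7 and 36.6. Their part in the levels of Cd9 and of Eng was not tested. Of 19 listed tetraspanins, 18 had a row and Tspan13 alone (45.0, 79.3, 105 and 317 FPKM) was past 2-fold in the same direction in both genotypes, higher in CLP.

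Esam (chr9:37335663-37345904, plus strand), an adhesion molecule of endothelial cells and stem cells, had 8.04 (WT) and 12.5 (GRK6-/-) FPKM in HSC, 15.9 in GRK6-/- CLP and no row in WT CLP. WT CLP stood apart as the library without a row, where 3 fragments would have given 0.368 FPKM, and the other 3 rested on about 43.4, 87.9 and 82.7 fragments. Esam did not differ by 2-fold between the HSC libraries (log2 ratio 0.57) nor between GRK6-/- HSC and GRK6-/- CLP (-0.33). In GRK6-/- CLP its row ran 829 bases past the annotated end, toward Vsig2, which had a row (26.2 FPKM) in that library alone. Endothelial markers, summed over 10 listed genes, were at 88.6, 177, 227 and 63.4 FPKM. Most of each sum was Egfl7 (67.1, 164, 198 and 54.0 FPKM), and Pecam1 (12.3, 9.07, 26.1 and 6.77) and Tie1 (8.80, 3.20, 3.09 and 2.48) made up most of the rest. Kdr, Cldn5, Plvap and Stab2 had no row in any library, and Cdh5 had none in HSC and at most 0.113 FPKM in CLP. The part of endothelial RNA in the levels of Esam and Eng was not tested.

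Cd34 (chr1:196765015-196787486, plus strand), a sialomucin, had 151 (WT) and 338 (GRK6-/-) FPKM in HSC and 165 (WT) and 244 (GRK6-/-) in CLP, at percentiles of 94.5 to 97.7 among the rows of a library. GRK6-/- was the higher library in both populations, past 2-fold in HSC (log2 ratio 1.16) and not in CLP (0.56), and the populations overlapped. The difference between HSC and CLP was -0.13 in WT and 0.47 in GRK6-/-. Of the 11 sialomucin and JAM-like genes listed, 8 had a row and 0 were past 2-fold in the same direction in both genotypes. Cd27 (chr6:125182640-125187028, minus strand), a TNF receptor family member that lies 223.3 kb from Cd9, had 74.5, 100.4, 159.4 and 159.3 FPKM. Both CLP libraries were above both HSC libraries, as for 14.2% of all genes, past 2-fold in WT (-1.09) and not in GRK6-/- (-0.66), and the 2 CLP values were nearly equal. In limma the difference for Cd27 was -0.87 ± 0.93 (log2, SE; adjusted p = 0.955). Of 8 listed genes of CD27 and its signalling partners, 7 had a row and 2 were past 2-fold higher in HSC in both genotypes (5.77% of all genes were). These were Siva1, which binds the cytoplasmic tail of CD27 (265, 221, 118 and 101 FPKM), and Traf3, a TNF receptor associated adaptor (9.15, 6.75, 2.37 and 2.18 FPKM).

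The counts past 2-fold were read against all genes. Between WT and GRK6-/- HSC 5 of 8 members passed, with Cd34 and Procr higher and Cd9, Eng and Slamf1 lower in GRK6-/-, where 37.4% of all genes passed. In CLP it was 4 of 9 (Cd9, Eng, Esam and Procr), where 50.0% of all genes passed. The 4 were all higher in GRK6-/-, as 26.6% of all genes were past 2-fold. Between WT HSC and WT CLP it was 6 of 9, with Cd9, Eng, Esam and Slamf1 higher in HSC and Cd27 and Ly6d higher in CLP, against 46.5% of all genes. Between GRK6-/- HSC and GRK6-/- CLP it was 3 of 9, with Eng and Procr higher and Ly6d lower in HSC, against 45.6%. In these counts Procr in HSC, Esam in CLP and WT, and Ly6d pass through a library without a row. With genes without a row at 0, the median log2 ratio of the members was 0.50 for GRK6-/- over WT in HSC and 0.56 in CLP, beside 0.05 over all genes in each, and -0.13 and 0.17 for HSC over CLP in WT and GRK6-/-, beside 0.08 in each. The comparisons share libraries, so that a high or low WT HSC value enters 2 of them.

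**Figure D3:**
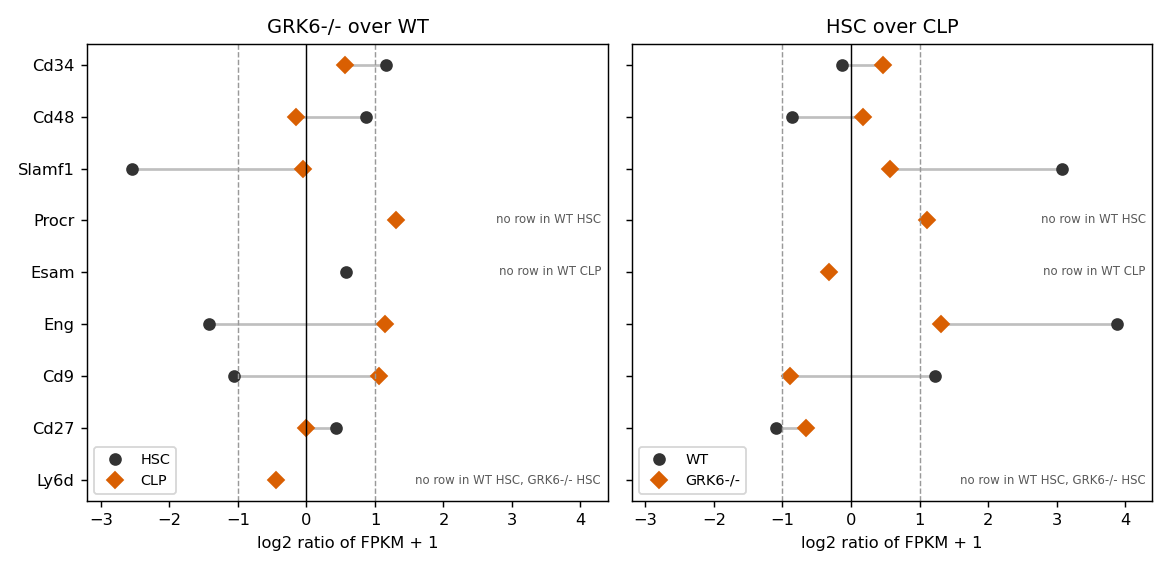
log2 ratios of FPKM + 1 for each gene, GRK6-/- over WT on the left (HSC circles, CLP diamonds) and HSC over CLP on the right (WT circles, GRK6-/- diamonds), with dashed lines at 2-fold; each point compares 1 library with 1 library, and comparisons with a missing row are left out. On the left Cd9 and Eng lie past 2-fold on opposite sides in HSC and CLP, and on the right only Eng lies past 2-fold on the same side in both genotypes at this pseudocount; with a pseudocount of 5 Eng no longer does, and neither Cd9 ratio on the left passes.

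In the same direction in both genotypes, 1 of 9 genes was past 2-fold higher in HSC (Eng, against 5.77% of all genes) and 1 higher in CLP (Ly6d, against 5.05%). Both HSC libraries lay above both CLP libraries for 2 genes, Slamf1 and Eng, as they did for 17.6% of all genes, and both CLP libraries above both HSC libraries for Cd27 and Ly6d, as for 14.2%. Cd9 and Eng passed 2-fold in both populations for GRK6-/- against WT in opposite directions, as 9.01% of all genes did, and neither did with a pseudocount of 5. With so few members these shares are not a result about the list. In limma the differences between HSC and CLP were 0.17 for Cd34, -0.35 for Cd48 and 0.16 for Cd9 (log2), and with Procr and Esam these genes had adjusted p from 0.943 to 0.994.

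Other surface proteins used for sorting, 27 genes that include Kit and Il7r, were past 2-fold for 11 of 24 between the HSC libraries (37.4% of all genes) and for 13 of 26 between the CLP libraries (50.0%). In both genotypes 2 were past 2-fold higher in HSC, as 5.77% of all genes were, and 3 in CLP, as 5.05% were. The 3 were Flt3 (54.5, 23.8, 124 and 219 FPKM), Il7r and Cd38 (3.50, no row, 13.3 and 3.75 FPKM). Thy1, present at a low level on stem cells and a high one on T cells, had 29.2, 9.86, 1.67 and 3.28 FPKM, and Fcgr3, an Fc receptor of myeloid progenitors, had 115, 113, 27.6 and 48.9, both higher in HSC. Neutrophil and monocyte markers, summed over 11 listed genes, were at 17762, 11215, 9183 and 7744 FPKM. This sum, mostly Elane, Mpo, Prtn3 and Ctsg, was also highest in HSC. Only Mpo (3550, 2038, 1023 and 890) was past 2-fold higher in HSC in both genotypes, and 0 genes were so in CLP. S100a8 (1706, 106, 439 and 371) and S100a9 (33.6, 1.63, 269 and no row) went opposite ways in WT and GRK6-/-. T and NK cell markers were at 629, 427, 278 and 454 FPKM, most of it Nkg7 (597, 398, 248 and 415). In this list 2 genes were past 2-fold higher in HSC in both genotypes, Cd3g (12.1, 7.93, 0.257 and 0.403) and Cd3d (5.42 and 9.04, no row in CLP). Only Lck was past 2-fold higher in CLP in both (13.7, 11.6, 29.2 and 29.3). Erythroid markers were at 338, 1701, 154 and 18111 FPKM, most of the last from Hba-a2 (17220 in GRK6-/- CLP), and stromal markers were at or under 0.553. The part of these lists in the levels of the 10 genes was not tested.

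**Figure D4:**
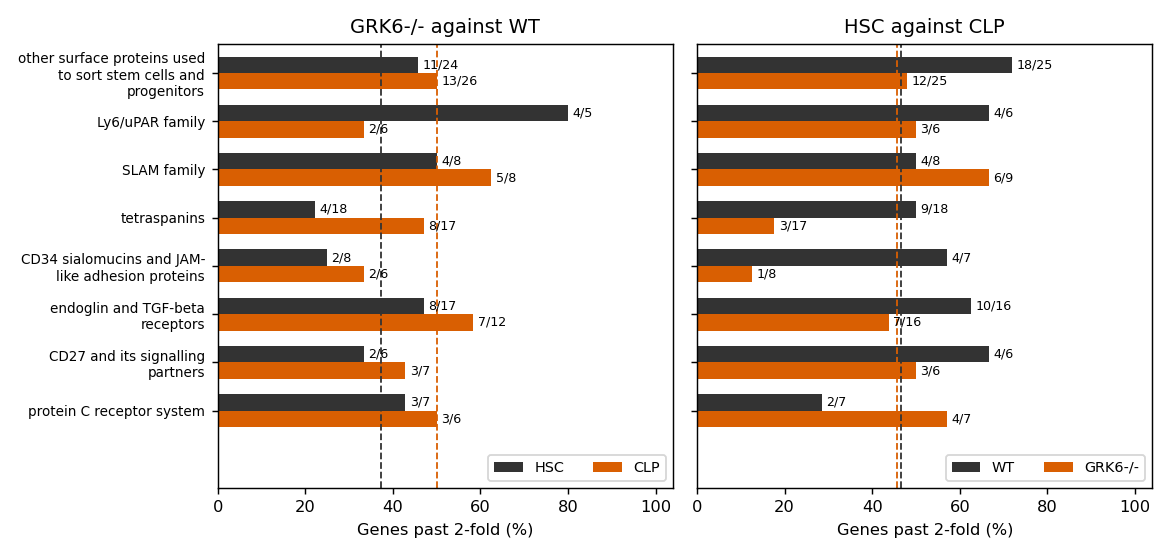
Share of genes past 2-fold (x axis, percent, from 0) in 8 lists of related genes, GRK6-/- against WT on the left and HSC against CLP on the right, with the count over the number with a value beside each bar and dashed lines at the share among all genes. Only 5 to 26 genes stand behind each bar, and the Ly6/uPAR bar for HSC is 4 of 5.

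The sequence before the gene starts was read for 7 of the 10 genes from RefSeq (GRCm38.p6), as 250 bases upstream of each. The windows of Slamf1 and Eng are printed because these genes were higher in both HSC libraries, with capitals at every match to AGGAAG (the ETS core) or CANNTG (the E-box), read on both strands. No match overlapped another in these windows.
Slamf1, chr1:171766882-171767131, plus strand: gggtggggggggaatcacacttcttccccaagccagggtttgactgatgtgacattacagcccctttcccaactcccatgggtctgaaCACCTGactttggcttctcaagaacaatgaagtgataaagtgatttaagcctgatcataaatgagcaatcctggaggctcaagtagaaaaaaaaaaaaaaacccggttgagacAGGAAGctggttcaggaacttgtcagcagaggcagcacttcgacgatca
Eng, chr2:32646345-32646594, plus strand: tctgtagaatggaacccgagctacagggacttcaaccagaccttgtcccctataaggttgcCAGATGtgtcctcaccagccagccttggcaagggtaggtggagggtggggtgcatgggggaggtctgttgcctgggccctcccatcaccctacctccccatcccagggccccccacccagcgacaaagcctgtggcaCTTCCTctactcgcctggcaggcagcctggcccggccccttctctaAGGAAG
Over the 7 windows, AGGAAG stood in 4 (Cd34, Slamf1, Cd9 and Eng) and in 29.5% of 32851 promoters, and CANNTG in 6 and in 66.2%. TGTGGT, the RUNX core, stood in 1 (Cd48) and in 14.0% of promoters. AGATAA, to which GATA factors bind, stood in 0 of the 7 and in 9.99% of promoters, and the palindromic motif of EBF in 0 and in 0.779%. These are matches of letters in 1 window and not binding sites.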

How the data were processed

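Bone marrow HSC and CLP of WT and GRK6-/- mice were measured in 4 libraries of pooled, PCR amplified cDNA (poly(dT) priming, 20 and 10 cycles). The deposited FPKM values, with a locus for each row, were made by the authors with the Tuxedo suite on mm9 (TopHat 1.4.0 per the submitters' processing notes). Other settings are not given in the sources used here. Amplification of single cells and scaling by length precede every value.

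Rows with the same symbol were summed. Names in rows that join several genes were left out, 333 of 12750, which left 12417 genes, of which Ly6a is not one. Log2 ratios used a pseudocount of 1. The population effect was fitted with limma 3.58.1 (R 4.3.3) on log2(FPKM + 1) for 11230 genes at 1 FPKM or more in at least 1 library, with Benjamini-Hochberg adjustment over all of them and genotype as a term. Gene loci and exons came from NCBIM37 with GENCODE annotation, and promoters from RefSeq. Python 3.11.15 with pandas 2.3.3, numpy 2.4.6 and Biopython 1.88 served for the rest, and matplotlib 3.10.9 for figures.

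Fragments were estimated from FPKM steps, tested on simulated data. They are estimates of depth, not counts, and cover no variation between mice or cells. All 10 genes were named, and genes of other lists only if past 2-fold in the same direction in both genotypes with at least 10 FPKM in a library, at most 4 a list. Other genes given by name (Flt3, Traf3, Sh2d1b1, Acvr1, Fpgs, Vsig2, Ly6e, Ly6f and single cell type markers) were chosen after their values were seen. The 10 genes and the lists were chosen with earlier results of these data known. The alternatives were other pseudocounts, thresholds, filters and scalings. The row over the Ly6a locus and the restriction to genes with complete rows were added after the data had been seen.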

Additional observations from a re-analysis of the deposited data

Results flagged for a closer look

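For 4 of the 6 genes with a row in all 4 libraries, the log2 ratio of GRK6-/- to WT had opposite signs in HSC and CLP. The share of all genes with opposite signs was not computed, so this count is not a result about the list. The log2 ratio of Eng was -1.42 in HSC and 1.15 in CLP, and that of Cd9 was -1.06 and 1.06. Both genes were past 2-fold in opposite directions, as 9.01% of all genes were. With a pseudocount of 5, Eng in CLP (0.61) and Cd9 in both (-0.99 and 0.98) no longer passed. The log2 ratio of Cd48 was 0.87 in HSC and -0.16 in CLP, and that of Cd27 was 0.43 and -0.00081, none past 2-fold. The CLP values of Cd27 were nearly equal, so its sign there carries no weight. Whether the ratios differ between HSC and CLP was not tested for any of the 4 genes, since no group had a replicate.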

How the results depend on the processing

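With 1 library per group, every count of genes past 2-fold depends on single pools, and values under about 1 FPKM rest on few fragments. The log2 ratios of the members were recomputed under other pseudocounts, scalings and row choices, 29 ratios in each setting. With a pseudocount of 0.1, 28 of the 29 stayed on their side of 2-fold and 1 passed it. With a pseudocount of 5, 23 stayed and 6 (of Eng, Cd9 and Procr) no longer passed it. Of all these ratios, 0 changed sign. Rescaling used factors of only 0.982 to 1.006 and left all 29 on their side. The row choice could not change a ratio, since no member had more than 1 row in a library. Members past 2-fold fell from 5 to 2 between the HSC libraries, from 4 to 1 between the CLP libraries and from 3 to 1 between GRK6-/- HSC and GRK6-/- CLP at a log2 ratio of at least 2. The share of all genes fell as well, from 37.4% to 12.4%, from 50.0% to 24.8% and from 45.6% to 19.1%. With a pseudocount of 5 the CLP count was 1 (32.4% of all genes) and that of GRK6-/- HSC against GRK6-/- CLP was 1 (26.9%). Among members at 10 FPKM or more, 3 of 6 passed in HSC (38.3% of all genes at that level) and 2 of 6 in CLP (50.7%). Members past 2-fold between HSC and CLP in the same direction in both genotypes were 2, namely Eng and Ly6d. They fell to 1 with a pseudocount of 5, where Eng no longer passed, with a log2 ratio of at least 2, or with complete rows only, and rose to 3 with a pseudocount of 0.1, where Slamf1 passed. The share of all genes was 10.8% in the main setting and 4.50% with a pseudocount of 5. It was 2.59% at a log2 ratio of at least 2 and 15.4% with a pseudocount of 0.1. The count between WT HSC and WT CLP, 6, ranged from 4 to 7, and the share of all genes from 20.5% to 56.8%. Of the population effect in limma, 1 gene was called, and 0 without the genotype term (631 at an unadjusted p under 0.05), 0 with a pseudocount of 0.1 (565) and 0 without the filter (614), but 80 with a trended prior. Depth limits Slamf1 in CLP and Procr in WT CLP most. The replicate number is 1 in every group and carries no pairing, so no replicate block could be fitted. The genotype term in limma compares HSC with CLP within each genotype. The 1 call, Ly6d, was lost without it. Both HSC values of Ly6d were set to 0 and it passed the filter through CLP alone, so this loss shows nothing about the term.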
